A study of Mus musculus with 40 samples.

Results

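Genes of antioxidant defence and peroxide clearance were followed by diet and time in mouse subcutaneous SVCs, the stromal vascular cells of fat under the skin, which the series text calls infiltrating macrophages. The members were named by symbol: Cat, Gpx1, Gpx3, Srxn1, Txnrd1, Gclc, Gclm, Slc7a11, Nqo1 and Hmox1. All 10 were on the array, with 14 probes, among 29411 genes named by the deposited annotation.

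Cells turn the superoxide and hydrogen peroxide of respiration and of phagocyte oxidases into water through catalase, the glutathione peroxidases and the peroxiredoxins, which draw reducing power from glutathione, thioredoxin and NADPH. Many genes that make or recycle these reductants, among them Nqo1, Hmox1, Gclc, Gclm, Txnrd1, Srxn1 and Slc7a11, are known targets of the transcription factor Nrf2 (Nfe2l2), which is released from Keap1 under oxidative stress. In fat tissue, catalase is abundant in the peroxisomes of adipocytes, Gpx3 is secreted, and macrophages are a known source of both oxidants and haem oxygenase.

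The samples were C57BL/6J mice, which were 3 to 4 weeks old and weaned when they were divided into 5 diets with 30 animals each. LFC received a diet with 10% of calories from fat, HFC a high-fat, high-sucrose diet with 60% of calories from fat, while the 3 remaining diets, named HF5, HF20 and HF75, were that of HFC with 5, 20 or 75 µg of the ethano-botanical formulation Kal-1. Per the labels, 5 animals of each diet were killed at intervals of 3 weeks, but how many mice made up 1 array is not stated. No replicate was numbered, and each label of diet and time had 1 array, although the series text speaks of 3 biological replicates; whether animals were pooled on an array is not stated. A paper on the liver arrays of this study counts weeks from day 14, and so treats day 14 and week 0 as the same time. Here they are kept as separate time labels. The LFC and HFC diets had 11 arrays each (days 1, 6, 10 and 14 and weeks 0, 3, 6, 9, 12, 15 and 18), HF5 had 6 (weeks 3 to 18), and HF20 and HF75 had 5 each (weeks 3 to 15). In the comparisons of diets and doses, the p-values therefore measure the spread between time points and arrays, part of which may be technical. In the comparison over weeks, the arrays of a week, 1 per diet, served as its replicates. Its p-values measure the spread between arrays of unlike diets, and not between animals of the same diet and week.

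Signals are given as a level, the log2 signal minus the 75th percentile of the array, so that a level of 0 is the brightness which 25% of the probes of that array exceeded. Levels of different genes come from different probes and are not compared with each other. Between 53.5% and 87.2% of the probes of 36 arrays were well above background, a flag of the scanner software, and their 75th percentiles ran from 160.6 to 1793 intensity units. A pair of LFC arrays stood apart. On the LFC array of week 3 the 75th percentile was 7.86 units, 17.3% of the probes were well above background and no member was, so its values are bounds: −0.06, the lowest measurable level of that array, for 7 members, and 0.51 to 0.85 for Gclc, Srxn1 and Txnrd1. The LFC array of day 14 had 9104 outlier spots and a median rank correlation of 0.437 with the other arrays, against 0.836 to 0.947 for the 36. Results are given with and without them.

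The labelled cells were checked against marker genes of each cell type. All 8 macrophage markers were well above background on 34 of 38 arrays, with a log2 summed signal from 1.91 (HFC day 1) to 6.06 (HFC week 6). All 8 adipocyte markers were above background on 34 arrays as well, and so were all 6 fibroblast markers on 34 arrays. RNA of several cell types was therefore present on nearly every array. Signals were added before the log2 was taken, so that a sum leans on its brightest gene. On the 36 arrays this was on average Fabp4 for adipocyte, Cd14 for macrophage and Dcn for fibroblast markers. For erythroid markers it was Hbb-b1, for T cell markers Cd3d and for the digestion response list used below Junb. The LFC array of week 18 differed most: its fibroblast sum was −1.73 with 2 of 6 genes measured and its adipocyte sum 0.42 with 4 of 8, while its neutrophil sum was 8.73. In RNA from mixed cells, fewer cells of a type and less RNA per cell cannot be told apart, which bears on every level below.

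**Figure D1:**
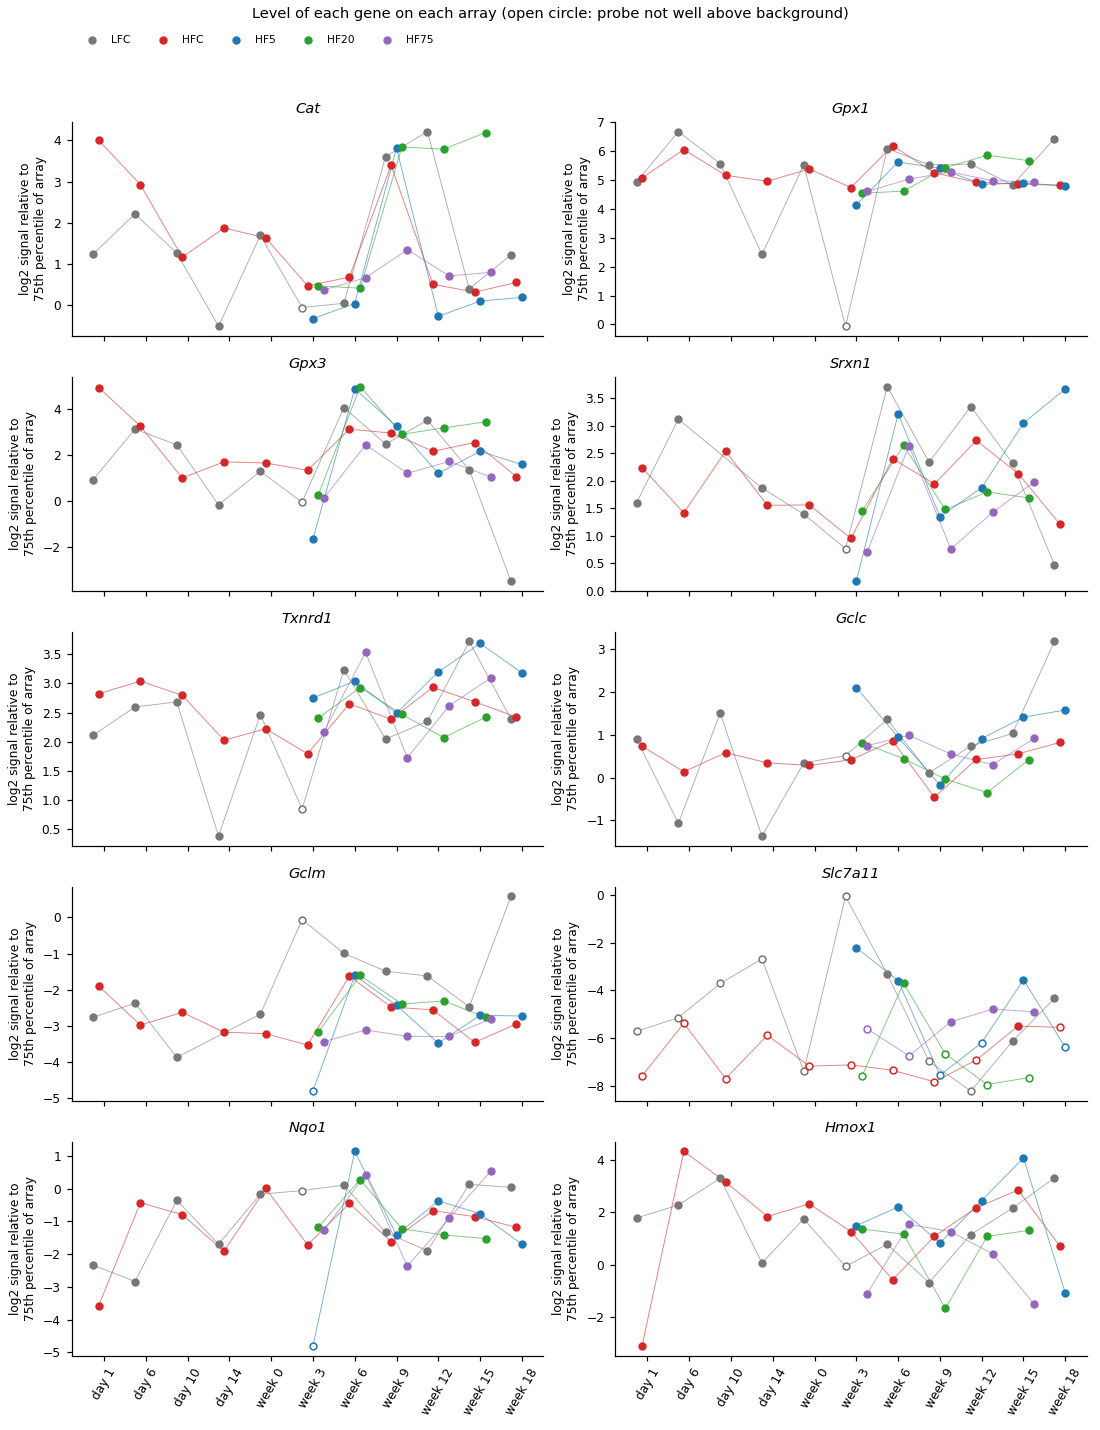
Level of the 10 genes (log2 scale, as defined above) on 38 arrays by time label, with 1 point per array coloured by diet; lines join arrays of 1 diet. Open circles mark probes not well above background, whose values are bounds. Cat lay between 3.39 and 4.21 on 8 arrays, 4 of them of week 9, and Gpx3 between 2.45 and 5.00 on the arrays of week 6.

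Cat encodes catalase, the peroxisomal enzyme that splits hydrogen peroxide into water and oxygen. At week 9 its level was 1.34 in HF75, 3.39 in HFC, 3.61 in LFC, 3.81 in HF5 and 3.84 in HF20. The arrays of week 3 read −0.33 in HF5, 0.37 in HF75, 0.46 in HF20 and 0.47 in HFC, and those of week 6 0.04 in HF5 and LFC, 0.41 in HF20, 0.66 in HF75 and 0.67 in HFC. Week 9 was thus above weeks 3 and 6 in every diet measured at both, with no overlap. At week 12 the level was 4.21 in LFC and 3.78 in HF20 but 0.51 in HFC, 0.71 in HF75 and −0.28 in HF5, and at week 15 it was 4.19 in HF20 against 0.10 to 0.79 in the other 4 diets. Among the early LFC and HFC arrays, HFC day 1 had the highest level at 4.00, followed by HFC day 6 at 2.92 and LFC day 6 at 2.21. On the 36 arrays the median was 0.98.

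The 8 arrays with a Cat level of 3.39 or more had, side by side, an adipocyte sum between 7.93 (HFC week 9) and 8.55 (HF20 week 12) and a low sum of immediate early and heat shock genes, a list known to respond to tissue digestion. That sum was 4.41 on HF20 week 12, 4.74 on LFC week 12, 4.90 on LFC week 9, 5.11 on HF20 week 9, 5.19 on HFC day 1, 5.92 on HF5 week 9, 6.71 on HF20 week 15 and 7.71 on HFC week 9. On HF75 week 9, where Cat was 1.34, the adipocyte sum was 7.88 and the digestion response sum 8.88. HFC day 6, with the highest adipocyte sum of all arrays at 10.33, had a digestion response sum of 8.85 and a Cat level of 2.92. The pattern was not without exception: LFC day 6 had sums of 9.82 and 6.08 and a Cat level of 2.21. The epithelial sum of the same 8 arrays lay between −3.76 and −1.38. The part of these genes in the Cat levels was not tested.

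**Figure D2:**
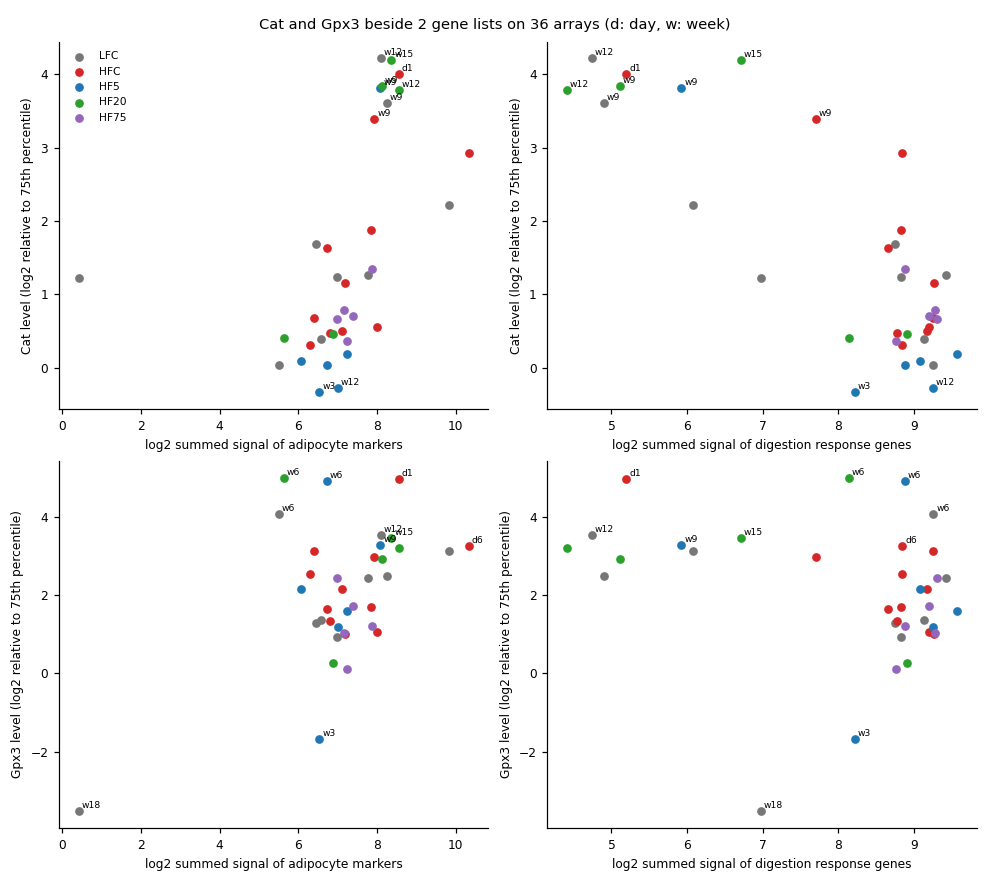
Level of Cat (top) and Gpx3 (bottom) on 36 arrays against the log2 summed signal of 8 adipocyte markers (left) and of the digestion response genes (right), with 1 point per array coloured by diet. The arrays with a Cat level of 3.39 or more have a digestion response sum of 7.71 or less, and the lowest Gpx3 level, −3.52, is on the LFC array of week 18, whose adipocyte sum is 0.42.

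Gpx3 encodes the secreted, selenium-containing glutathione peroxidase of plasma. Its level at week 3 was −1.67 in HF5, 0.12 in HF75, 0.27 in HF20 and 1.33 in HFC. Week 6 held 2.45 in HF75, 3.13 in HFC, 4.08 in LFC, 4.90 in HF5 and 5.00 in HF20. No array of week 6 overlapped with week 3. Weeks 9, 12 and 15 lay between 1.04 (HF75 week 15) and 3.52 (LFC week 12). Early levels ran from 0.92 on LFC day 1 to 4.95 on HFC day 1, apart from −0.18 on the LFC array of day 14, and the lowest level of the 36 arrays was −3.52 on LFC week 18, the array with few fibroblast and adipocyte transcripts.

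Gpx1, the main cytosolic glutathione peroxidase, was bright throughout, with a lowest level of 4.14 (HF5 week 3), a median of 5.12 on 36 arrays. Its spots were saturated on 7 arrays, where the level is a lower bound (6.43 on LFC week 18), so that no highest level is given; LFC day 6, not saturated, had 6.68.

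Srxn1 encodes sulfiredoxin, which restores overoxidised peroxiredoxins. At week 3 its level was 0.17 in HF5, 0.71 in HF75, 0.95 in HFC and 1.44 in HF20, and at week 6 it was 2.40 in HFC, 2.64 in HF20 and HF75, 3.22 in HF5 and 3.71 in LFC. Again the arrays of weeks 3 and 6 did not overlap. HF5 reached 3.67 at week 18, where HFC had 1.21 and LFC 0.47. The other 2 Srxn1 probes followed the one shown with correlations of 0.889 and 0.926 over the arrays.

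Txnrd1, the cytosolic thioredoxin reductase, ran from 1.72 (HF75 week 9) to 3.72 (LFC week 15) on 36 arrays with a median of 2.61. In HF5 the levels were 2.75, 3.04, 2.49, 3.20, 3.69 and 3.18 at weeks 3, 6, 9, 12, 15 and 18, and in HFC they were 1.79, 2.65, 2.39, 2.93, 2.69 and 2.42. Each HF5 array lay above the HFC array of its week, although the ranges of the diets overlapped.

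Gclc encodes the catalytic subunit of glutamate-cysteine ligase, the rate-limiting enzyme of glutathione synthesis, and Gclm its modifier subunit. Gclc was 2.10, 0.94, −0.18, 0.91, 1.41 and 1.58 in HF5 and 0.41, 0.85, −0.46, 0.42, 0.55 and 0.82 in HFC at weeks 3 to 18, and the HF5 array was higher at each of the 6. Both diets had their lowest Gclc at week 9. The highest Gclc level, 3.18, and the highest Gclm level, 0.58, were on LFC week 18, where the erythroid marker sum was 8.50 and fibroblast markers were mostly unmeasured. Whether the cell content of that array set them was not tested. Gclm stayed between −4.80 (HF5 week 3, not well above background) and −0.996 on the other 35 of the 36 arrays. Within week 6 it was −3.11 in HF75, −1.62 in HFC, −1.61 in HF20, −1.60 in HF5 and −0.996 in LFC.

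Slc7a11, the cystine importer that feeds glutathione synthesis, was well above background on 11 of 38 arrays, and its other 2 probes on 7 and 6. It was measured in 3 of 11 LFC arrays (weeks 6, 15 and 18), 1 of 11 HFC arrays (week 15), 3 of 6 HF5 arrays (weeks 3, 6 and 15), 1 of 5 HF20 arrays (week 6) and 3 of 5 HF75 arrays (weeks 9, 12 and 15). The measured levels ran from −6.14 on LFC week 15 to −2.22 on HF5 week 3. All other values are bounds, so that differences of this gene between groups rest mostly on bounds and are not read as folds.

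Nqo1 is the quinone reductase often read as a marker of Nrf2 activity. Its highest levels were 1.14 (HF5 week 6), 0.54 (HF75 week 15) and 0.43 (HF75 week 6), and its lowest measured level was −3.58 on HFC day 1. HF5 week 3 was not well above background. At week 6 the 5 diets held −0.45 in HFC, 0.11 in LFC, 0.27 in HF20, 0.43 in HF75 and 1.14 in HF5, and at week 9 they held −2.36 in HF75, −1.62 in HFC, −1.42 in HF5, −1.34 in LFC and −1.23 in HF20. The 2 weeks did not overlap.

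Hmox1 encodes inducible haem oxygenase, which breaks down haem and is prominent in macrophages that take up red cells. Its level ran from −3.10 on HFC day 1 to 4.33 on HFC day 6, with 4.08 on HF5 week 15 and a median of 1.34. HFC day 1 also had the lowest macrophage sum of the 36 arrays, 1.91, and HFC day 6 an erythroid sum of 8.96. Other arrays went the other way: HFC week 6, with the highest macrophage sum (6.06), had an Hmox1 level of −0.57, and HFC week 18, with an erythroid sum of 8.79, had 0.71. The part of these cells in the Hmox1 levels was not tested.

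The first comparison asked what the high-fat, high-sucrose diet did against the low-fat diet at matched times. Among members, Gpx3 had a higher level in HFC at 8 of 11 time points, by 0.94 ± 0.55 on average (log2 difference ± limma SE, n = 11 pairs). Gclm had a lower one at 8 of 10, by −0.96 ± 0.47. Values after ± are SEs from limma here and below. The Gpx3 mean rests on day 1 (4.03) and week 18 (4.58): the median difference was 0.48, and leaving out 1 time gave means from 0.57 to 1.18. For Gclm the LFC value of week 3 is an upper bound above the measured HFC level, so that the difference at that time has no known direction, and without the LFC arrays that stood apart it was lower at 7 of 9. The same holds at week 3 for Gclc and Nqo1. Without those 2 arrays Gclc was lower in HFC at 8 of 9 times, Nqo1 lower at 6 of 9 and Txnrd1 higher at 6 of 9. Their mean differences with all arrays were small and moved with the processing: −0.23 ± 0.34 for Gclc (−0.46 to 0.12 over the alternatives), −0.25 ± 0.37 for Nqo1 (−0.52 to 0.41) and 0.27 ± 0.28 for Txnrd1 (0.040 to 0.40, lowest without those arrays). The differences of Gclm at single times ran from −3.52 at week 18 to 1.25 at day 10, and those at weeks 6, 9, 12 and 15 were −0.63, −0.99, −0.94 and −0.98. The Gclm mean rests in large part on week 18 and on the bound of week 3 (−3.47). Its median difference was −0.78, and −0.63 without the LFC arrays of week 3 and day 14. The difference in Cat ran from −3.71 at week 12 to 2.76 at day 1, and that in Hmox1 from −4.88 at day 1 to 2.05 at day 6, so that neither diet was above the other throughout. With limma, 0 of the 9 members tested passed the threshold, 0 of 29267 probes were called (0%), and 806 probes and none of the 9 members had an unadjusted p under 0.05. The lowest adjusted p of a member was 0.941, and another Srxn1 probe had an unadjusted p of 0.0447. Leaving out the LFC arrays of week 3 and day 14 also gave 0 called probes (1052 at an unadjusted p under 0.05), and reversed the mean difference of Gpx1 (0.35 with them, −0.38 without), Cat (0.20 and −0.08) and Hmox1 (0.02 and −0.32). By quantile normalization, which shifted the median difference of all probes from −0.09 to 0.18, the count was 0 as well (1189 unadjusted), and all other alternatives gave 0, with 214 to 1788 unadjusted.

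**Figure D3:**
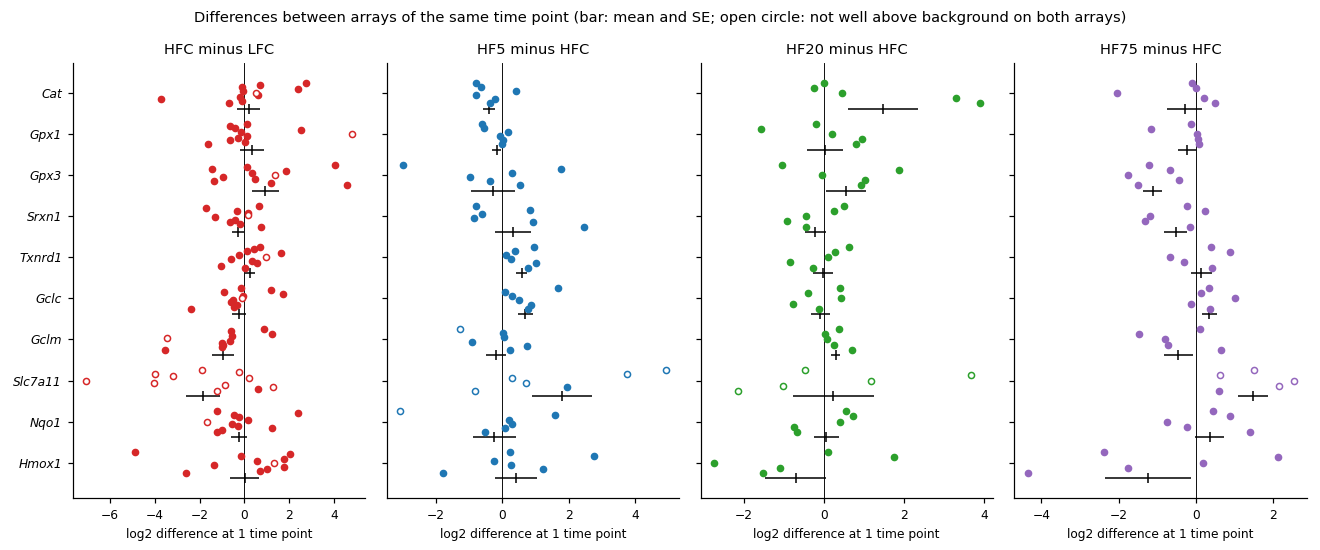
Log2 difference between the 2 arrays of each time point for the 10 genes, in 4 panels: HFC minus LFC, and HF5, HF20 and HF75 minus HFC. Each point is 1 time point, and open circles were not well above background on both arrays. Black bars give the mean and the plain SE of the points, which differs from the limma SE given in the text. All 6 points of Gclc and of Txnrd1 lie above 0 for HF5, and all 5 of Gpx3 lie below 0 for HF75.

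The Kal-1 comparisons asked how each dose differed from HFC alone. The HFC arrays of weeks 3 to 15 enter all 3, and that of week 18 enters HF5 alone, so that the doses are not independent of each other. At 5 µg, Gclc was higher at weeks 3, 6, 9, 12, 15 and 18 by 1.69, 0.09, 0.29, 0.49, 0.86 and 0.76, with a mean of 0.695 ± 0.24 (SE, limma, 6 pairs). Its unadjusted limma p was 0.0191 and its adjusted p 0.910 (0.165 to 1.00 over the alternatives). The largest difference, at week 3, lies between arrays of unlike cell content: in HF5 and HFC the endothelial sums were 0.27 and 3.71, the fibroblast sums 6.64 and 8.43 and the T cell sums 5.20 and 3.46. Their part was not tested. Txnrd1 was higher in 6 of 6 pairs too, by 0.58 ± 0.19 (unadjusted limma p = 0.0174, adjusted 0.910, and 0.145 to 1.00 over the alternatives). Neither gene passed the threshold. Gclm was higher in 4 of 6 pairs, with a mean of −0.19, and Srxn1 in 3 of 6, with a mean of 0.33. Slc7a11 was the third member with an unadjusted p under 0.05 (limma, 0.0393, adjusted 0.958). It met the filter through HF5 alone, with 3 of 6 arrays measured, against week 15 alone in HFC. Both arrays were measured in 1 pair, so that this p rests mostly on bounds and is not read as a difference. No probe was called by limma of 29200 tested (0%), 0 of 10 members among them, and 1517 probes had an unadjusted p under 0.05; all alternatives gave 0 as well, with 396 to 8232 unadjusted. Normexp background correction shifted the median difference of all probes to −0.30, and to −0.40 and −0.24 at the 2 higher doses.

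At 20 µg, Cat was higher than in HFC by 3.28 at week 12 and by 3.88 at week 15, with 0.44, −0.27 and −0.005 at weeks 9, 6 and 3. The mean difference was 1.47 ± 0.71 with an adjusted limma p of 0.405 (0.140 to 0.790 over the alternatives). It rests on weeks 12 and 15, and the median difference was 0.44. Adipocyte sums on HF20 were 8.55 and 8.36 at weeks 12 and 15, against 7.10 and 6.31 on HFC, and the digestion response sums were 4.41 and 6.71 against 9.18 and 8.84. Their part in the difference was not tested. Gclm was higher in 5 of 5 pairs, by 0.02 to 0.70, with the largest difference at week 15 and a median of 0.25. Its mean was 0.28 ± 0.21 (adjusted limma p = 0.516), and normexp background correction turned the mean to −0.33. None of 9 members tested and 0 of 30832 probes were called by limma (0%), with 3673 probes and no member at an unadjusted p under 0.05, and every alternative gave 0, with 1071 to 10005 unadjusted.

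At 75 µg, Gpx3 was lower than in HFC at weeks 3, 6, 9, 12 and 15 by −1.22, −0.68, −1.76, −0.44 and −1.51. The mean difference was −1.12 ± 0.28 (limma SE, n = 5 pairs, lower in 5 of 5). Its unadjusted limma p of 0.00508 did not pass after adjustment (0.142), and the adjusted p ran from 0.0534 to 0.934 over the alternatives. Marker sums differed within the pairs. The macrophage sum was lower in HF75 than in HFC in 5 of 5, as Gpx3 was: 3.29 and 3.90 at week 3, 4.45 and 6.06 at week 6, 3.53 and 4.54 at week 9, 3.51 and 4.41 at week 12, and 4.39 and 4.67 at week 15, with all 8 markers well above background on each array. The erythroid sum was lower in HF75 in 4 of 5, and the adipocyte, epithelial and digestion response sums were higher in 4 of 5 (digestion response 8.88 and 7.71 at week 9). T cell and endothelial sums had no common direction: at week 9 the T cell sums were 4.74 in HF75 and −1.14 in HFC and the endothelial sums 2.67 and 4.37, while at week 15 the T cell sums were −1.24 and 3.44 and the endothelial sums 5.06 and 4.37. Their part in the Gpx3 differences was not tested. Hmox1 differed by −4.35 at week 15 and by 2.11 at week 6, so that its mean of −1.24 ± 0.86 stood for no common direction. Limma called 295 of 28913 probes (1.02%), 236 higher and 59 lower, and 0 of 10 members. With normexp background correction the split was 232 higher and 8 lower. An unadjusted limma p under 0.05 was found for 4220 probes and 2 members, Gpx3 and Slc7a11. Slc7a11 met the filter through HF75 alone, with 3 of 5 arrays measured against 1 of 5 in HFC. Both arrays were measured in 1 pair, so that its p rests mostly on bounds and is not read as a difference. The count of called probes depended on the weeks included: leaving out 1 week, which also leaves fewer pairs for the test, gave from 0 (week 3) to 200 (week 9), with 7 without week 6, 35 without week 15 and 95 without week 12, and the pairs scanned on 1 day (2 of 5) gave 0. The doses were not tested against each other.

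Over weeks 3 to 15, where all 5 diets were measured, the same question was put to the diets together. Limma's F test over diets called 0 of 31371 probes (0%) and 0 of 10 members, with 3265 probes at an unadjusted p under 0.05 and 0 called under every alternative (3244 to 5395 unadjusted). Gclm had the lowest unadjusted p among the members (0.00614, adjusted 0.469), and it rested in part on the bound of the LFC array of week 3. The probes of Srxn1 differed in this limma test. Those not shown had an unadjusted p of 0.00675 and 0.0110 (adjusted 0.469 for both), against 0.115 for the one shown. Diet took 45.2% of the sum of squares of Gclm over the 25 arrays and 26.6% without that array. Over all probes the median share was 16.5% and over the members 15.9%.

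Week of sampling, the other axis of the same 25 arrays, asked whether the genes moved with time on the diets. Gpx3, Srxn1 and Cat changed over the weeks, 3 of 10 members, against 14.2% of all probes tested (4498 of 31569 by limma's F test). Their adjusted p was 0.00229, 0.0064 and 0.0312. Gpx3 fell at week 3 by −2.74 ± 0.43 against the mean of the other 4 weeks (adjusted p = 0.00504) and rose at week 6 by 2.15 ± 0.43 (adjusted p = 0.00265). Srxn1 had the same course, with −1.43 ± 0.28 at week 3 (adjusted p = 0.00515) and 1.21 ± 0.28 at week 6 (adjusted p = 0.00742), and its other 2 probes passed the F test and the week 6 contrast as well, but not that of week 3 (adjusted p = 0.0672 and 0.0536). The F test call of Srxn1 was lost without HF5 (adjusted p = 0.0749) and without HFC (0.0547), and that of Gpx3 under none of 13 alternatives. The week 6 change of Gpx3 kept its sign and passed under all 13 alternatives (1.78 to 2.61); its week 3 change passed under 12 of 13, and leaving out HF5 gave an adjusted p of 0.0502.

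Week 3 in all took 4 of 10 members below the other weeks against 21.7% of all probes called: Gpx3, Srxn1, Gpx1 (−1.70 ± 0.51, adjusted p = 0.0261) and Txnrd1 (−0.77 ± 0.27, adjusted p = 0.0472). The values of Gpx1 and Txnrd1 rest on the bounds of the LFC array. Without it they were −0.73 (adjusted p = 0.0682) and −0.47 (adjusted p = 0.196), Gpx3 was −2.69 (adjusted p = 0.0142), Srxn1 was −1.25 (adjusted p = 0.018), and Gclm was −1.11 (adjusted p = 0.0253), so that 3 of 10 passed against 11.7% of all probes. Gclm depended on the processing: normexp background correction of all 25 arrays gave 0.67 with an adjusted p of 0.041, in the opposite direction. Leaving out HF5 left 0 of 10 members and 0 probes called at week 3 by limma, with 10022 at an unadjusted p under 0.05. Of all called probes at week 3, 5492 were higher and 1345 lower, and by quantile normalization, which turned the median difference of all probes from 0.49 to −0.26, 2854 were higher and 4414 lower. Leaving the LFC array out gave 2090 and 1610 with a median of −0.04. On the 4 other arrays of week 3 the B cell marker sum was 5.44 to 5.92 and the T cell sum 3.22 to 5.20, and at week 6 they were −1.39 to 1.58 and −1.46 to 2.002 over 5 arrays. Gpx3 on these 4 arrays of week 3 was −1.67 to 1.33. Lymphoid sums were also high on single arrays of other times, at various Gpx3 levels. The B cell sum was 5.16 on HF75 week 9 (Gpx3 1.20), 5.13 on HF75 week 12 (1.72) and 4.40 on HFC week 15 (2.55). It was 5.41 on LFC day 1 (0.92) and 5.11 on LFC week 18 (−3.52). Whether lymphoid content had a part in the values of Gpx3, Srxn1 and Gclm was not tested.

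Week 6 called 2 of 10 members, Gpx3 and Srxn1, against 11.3% of all probes (3561), of which 2072 were higher and 1489 lower; with normexp background correction the split was 1391 and 1706. Without the LFC array of week 3, which then no longer entered the mean of the other weeks, Gclm (1.07 ± 0.26, adjusted p = 0.0064) and Nqo1 (1.65 ± 0.47, adjusted p = 0.017) rose as well, so that 4 of 10 passed against 21.3%. Epithelial markers were high on the same arrays, with sums of 5.14 in HFC, 5.41 in HF75, 5.43 in HF20, 5.92 in HF5 and 6.81 in LFC. At weeks 3, 9 and 12 the highest sum was 0.78 apart from LFC week 3 (4.85, with 1 of 4 genes measured), while HF5 and LFC at week 15 had 4.80 and 2.70. The median macrophage sum was 5.11 at week 6, against 3.71, 4.11, 3.69 and 4.49 at weeks 3, 9, 12 and 15. For adipocyte sums the median was 6.41 at week 6, against 6.84, 8.09, 7.38 and 6.58 at those weeks. The LFC array of week 3 was left out of these medians. The part of these cell types in the rise was not tested.

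Week 9 called 0 of 10 members by limma and 1 of all probes (0.00317%), with 5725 probes at an unadjusted p under 0.05. Quantile normalization called 764 probes and leaving dim values as they were 308, none of them a member. Cat was 2.33 ± 0.56 above the other weeks (adjusted p = 0.0664) and Gclc 0.78 below them (−0.78 ± 0.23, adjusted p = 0.0964). Leaving out the LFC array of week 3, both passed: Cat rose by 2.28 ± 0.56 (adjusted p = 0.0354) and Gclc fell by −0.82 ± 0.20 (adjusted p = 0.0353), 2 of 10 against 4.88%, and over all 12 alternatives the adjusted p of Cat ran from 0.0354 to 0.566. The F test call of Cat was lost without week 9 (adjusted p = 0.306) and without LFC, HFC, HF5 or HF20 (0.0659, 0.14, 0.172 and 0.0854). Titles of 4 of the 5 arrays of week 9, all but HF75, carry the letters WS, which no label explains. HF75 week 9 was the array of that week with the lowest Cat and, with 1.20, the lowest Gpx3. Week and whatever the arrays of a week shared in dissection, digestion, labelling, slide and scan day cannot be told apart. Of the 25 arrays, 21 were scanned on the main scan day of their week.

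At weeks 12 and 15 limma called no probe (0% and 0%), with 972 and 2065 at an unadjusted p under 0.05. Leaving out LFC called 1 probe at week 12 and normexp background correction 1 at week 15. Without the LFC array of week 3, limma called 0 at week 12 (0%) and 5 at week 15 (0.0158%), none of them a member. Counted over weeks, the same setting raised the F test from 3 to 7 of 10 members against 22.1% of all probes: Gpx3 (adjusted p = 0.00213), Srxn1 (0.00545), Gclm (0.0173), Gclc (0.0262), Cat (0.0321), Nqo1 (0.0366) and Txnrd1 (0.0498). Quantile normalization gave 6 of 10 against 20.1% and normexp 9 of 10 against 63.4%. Gpx1, Slc7a11 and Hmox1 did not pass without that array. Of the sum of squares of Gpx3, 66.8% lay between weeks and 12.5% between diets, and for Srxn1 64.8% and 13.3%; the median over all probes was 28.1% between weeks.

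Time on the LFC and HFC diets was also read as late (weeks 3 to 18, 12 arrays) against early (days 1 to 14 with week 0, 10 arrays). Gclm was 0.90 ± 0.42 higher late (unadjusted limma p = 0.0441, adjusted 1.00), and no other member had an unadjusted p under 0.05. Limma called 0 of 9 members and 1 of 30263 probes (0.0033%), with 1257 at an unadjusted p under 0.05; quantile normalization called 0 (2188 unadjusted), and leaving out both LFC arrays that stood apart called 10, none of them a member. Age and processing go with time and cannot be told apart from it. The difference between diets was then compared between the late and early arrays. Gclm had the lowest p, with a difference of −1.99 ± 0.82 (unadjusted limma p = 0.0325, adjusted 0.842). Both Gclm values rest in part on the LFC array of week 3, where the level is a bound. Again 0 of 10 members and 0 of 32928 probes passed (0%, 1153 unadjusted), while normexp background correction, which shifted the median difference of all probes from −0.58 to 1.04, called 10357 probes, 10171 of them higher, and 1 member, Slc7a11, which was measured on 4 of these 22 arrays.

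Other genes of the pathway were taken from a list of 59, all on the array and all tested. In the comparisons of HFC with LFC, of the 3 doses with HFC, over diets, of late with early and of diet by stage, limma called 0 of the 59. Over weeks the F test called 11 of 59 (15 without the LFC array of week 3), against 14.2% of all probes (22.1%), and the lowest adjusted p values were those of Akr1b8 (0.00778), an aldo-keto reductase, Mgst1 (0.0088), a microsomal glutathione transferase, Me1 (0.0173), the malic enzyme that supplies NADPH, Blvra (0.019), a biliverdin reductase, and Ggt5 (0.019), a gamma-glutamyl transferase. At week 3, 21 fell and 3 rose, against 21.7% of all probes, most of them higher; the balance over all probes turned with quantile normalization, as given above. The largest falls were in Mgst1 (−2.60 ± 0.49), Gsta4 (−2.04 ± 0.54), a glutathione transferase for lipid aldehydes, and Me1 (−1.99 ± 0.58). The rises were in Ncf1 (2.32 ± 0.58) and Ncf4 (2.27 ± 0.50), cytosolic subunits of the phagocyte NADPH oxidase, and in Gpx2 (1.84 ± 0.44), the gastrointestinal glutathione peroxidase. B cell and T cell sums were high on the arrays of that week, as given above, and their part was not tested.

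Without the LFC array, 13 of the 59 fell at week 3 and 2 rose (Ncf4 by 1.95 and Gpx2 by 1.53), against 11.7% of all probes; Mgst1 was −2.15, Gsta4 −2.60 and Akr1b8 −1.24, while Me1 and Ncf1 were no longer called. At week 6, Osgin1 (1.14 ± 0.33), Ggt5 (0.87 ± 0.23) and Ephx1 (0.86 ± 0.25), a microsomal epoxide hydrolase, rose, and none fell, against 11.3% of all probes. Leaving the LFC array out kept these 3 and added 4 that fell, among them Gsto1 (−1.08) and Nqo2 (−0.72), against 21.3%. At week 9 the count was 0 by limma with the LFC array and 9 without it, against 0.00317% and 4.88% of all probes: 7 rose, led by Me1 (2.33), Mgst1 (1.78) and Idh1 (1.78), and 2 fell, the Nrf2-opposing regulator Bach1 (−1.93) and Maff (−2.37). Adipocyte sums at week 9 were 7.88 to 8.25 against a median of 7.17 on the 36 arrays, and digestion response sums 4.90 to 8.88 against a median of 8.84; their part was not tested. Nfe2l2 itself ran from 2.11 to 3.82 and Keap1 from 1.62 to 3.24 over the 36 arrays, and neither was called at any week.

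Among themselves the members had no common course over the 36 arrays. The highest Pearson correlations of level were 0.623 for Gpx3 with Srxn1 (35 arrays), 0.606 for Gpx1 with Gclm and 0.549 for Srxn1 with Txnrd1 (35 arrays), and the lowest, leaving aside Slc7a11, whose values are mostly bounds, were −0.555 for Gpx3 with Gclc and −0.517 for Cat with Gclc. LFC week 18 had both the lowest Gpx3 level (−3.52) and the highest Gclc level (3.18) of the 36 arrays, and the −0.555 rests in part on it. Arrays share a diet or a time label, and these correlations are descriptions. The genes most alike in level, among 15817 genes well above background on 50% or more of these arrays, were Hsd17b4 (0.951), Nrg4 (0.95) and Gnpat (0.942) for Cat and Dpyd (0.928), Porcn (0.91) and Park2 (0.905) for Gpx3. For Gclm they were Tom1l1 (0.877), Armc9 (0.787) and Tusc1 (0.776), for Gclc Ero1l (0.861), Ilf2 (0.853) and Mier3 (0.822), for Nqo1 Ptgs1 (0.86), Slc6a9 (0.798) and Alox12 (0.786), and for Gpx1 Rnpep (0.843), Def8 (0.832) and Atg9a (0.813). The nearest genes of Srxn1 were Gja1 (0.772), Cyp2d9 (0.763) and Tom1l2 (0.763), of Txnrd1 Zfand5 (0.746), Sh3bgrl2 (0.741) and Mfsd6l (0.74), and of Hmox1 Bax (0.734), Tln1 (0.724) and Gabarapl2 (0.722).

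Promoter windows of 250 bases before to 50 after a transcription start were available from RefSeq (GRCm38.p6) for 8 members in 10 windows, and none was listed for Hmox1 and Gclc. They were searched on both strands for TGACNNNGC, the core of the antioxidant response element to which Nrf2 binds, because most of the members are known Nrf2 targets. It was found in 3 of the 10 windows (Srxn1, Txnrd1 and Gclm), and in 12.4% of all 32851 windows. A match is a description of the letters and not a binding site. The matches upstream of Txnrd1 and Gclm are shown with 10 bases on either side, on the strand of the gene, with the core, which lies on the opposite strand, in capitals. The stretches shown, with their flanks, span chr10:82859104-82859132 for Txnrd1 and chr3:122245413-122245441 for Gclm, both genes on the plus strand. The core begins 92 bases before the start in Txnrd1 and 134 bases before it in Gclm:
Txnrd1: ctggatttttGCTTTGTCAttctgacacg
Gclm: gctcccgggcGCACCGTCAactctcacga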

How the data were processed

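Per the file headers, the authors deposited 1 Feature Extraction 10.5.1.1 file per 1-colour (Cy3) array (the labels name version 9.1) in intensity units, with background subtracted and spatial trends corrected within each array and no normalization between arrays. The deposited table of log2 fold changes was used only for its gene symbols. It holds log2 fold changes of each array against the LFC array of its time, which were neither used nor compared. In R 4.3.3 with limma 3.58.1 and Python 3.11.15 with pandas 2.3.3 and numpy 2.4.6, log2 gProcessedSignal was shifted by the 75th percentile of each array, outlier spots were dropped, and dim values (not well above background) were set no lower than the dimmest measured signal on the same array. Probes well above background on 50% or more of the arrays of 1 compared group were tested with lmFit and eBayes, with time, diet or week as a block, and called at a Benjamini-Hochberg adjusted p of 0.05 over all probes tested. Where a gene had several probes, the brightest on average stands for it. Gene functions are background knowledge.

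Of 40 arrays, 38 were used: the labels of 2 arrays of week 18 conflict. The members and lists were chosen with earlier results of these data known. Named pathway genes were the 3 called genes with the largest difference in each direction (5 with the lowest adjusted p for F tests), and nearest genes (not for Slc7a11) the 3 with the highest correlation among genes with a gene name and a value on all 36 arrays. Pathway genes named without the LFC array of week 3 were chosen after their values were seen. Lists of endothelial, skeletal muscle, neutrophil and erythroid markers were summed as well. The model was tested on simulated data for 6 comparisons (not HF20 or HF75): it found most differences of 4 on the log2 scale put into them but missed many of 2, above all in diet by stage. The simulated noise was independent between arrays, its SD was capped, and no effect of time, slide or cell content was put in. Genes that vary more between arrays may therefore be found less often than in the simulation. Alternatives were quantile normalization, normexp background correction (offset 50), no raising, no filter, slide as a random block, no time block, and leaving out arrays, weeks or diets; same-day pairs and arrays, weeks without week 9, and all alternatives for the diets together and for diet by stage were chosen after seeing the data. The number of arrays limits the precision.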

Additional observations from a re-analysis of the deposited data

Results flagged for a closer look

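Within groups of 4 to 10 arrays, a level was marked when its gap to the nearest other level took up more of the group's range than Dixon's rule allows. Chance alone marks about 1 in 20 groups, and 80 groups were examined. Arrays were grouped by diet or by week, and 8 levels were marked.

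Cat had 3 of them. HF5 week 9 was at 3.812 with the next HF5 array at 0.18 (gap over range 0.876), HF75 week 9 at 1.343 with the next array of that week at 3.39 (0.822), and HF20 week 15 at 4.189 with the next of that week at 0.79 (0.83). Gpx1 had 2: LFC week 3 at −0.06094, a bound, next to 4.14 (0.875), and HF20 week 15 at 5.671, a saturated spot, next to 4.95 (0.859). The remaining 3 were Gclc on HF5 week 3 at 2.104 next to 0.81 (0.765), Nqo1 on HF20 week 6 at 0.2741 next to −1.17 (0.803), and Hmox1 on HF20 week 9 at −1.667 next to 1.08 (0.907).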

How the results depend on the processing

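Over all alternatives, 1292 values of single members were recomputed: 1153 kept their direction and their side of the threshold, 24 lost the threshold, 34 gained it and 81 turned round. All that turned belong to differences that had not passed the test. For each result listed below the cause was not tested. Values of Slc7a11 rest mostly on bounds and are not folds. Scan-day, week 9 (over weeks), diets-together and diet-by-stage alternatives were chosen after seeing the data.

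Counts. In HF75 against HFC (295 probes) the count was 152 without the filter on dim probes, 0 without the time block, 0 with pairs scanned on 1 day, and 0 to 200 leaving out 1 week. In late against early (1 probe) it was 0 without the filter, 0 by normexp, 0 by quantile normalization, 0 with slide as a random block, 10 without the 2 LFC arrays that stood apart, and 0 to 4 leaving out 1 time. For diet by stage (0 probes and 0 members) normexp gave 10357 probes and 1 member. Over weeks (4498 probes, 3 members) normexp gave 20026 and 9, quantile normalization 6 members, leaving out the LFC array of week 3 gave 7030 and 7, and leaving out 1 diet gave 541 to 4063 probes and 1 to 4 members. The counts of HFC against LFC, of HF5 and HF20 against HFC and of the F test over diets stayed at 0. Over weeks 3 to 15, LFC against the mean of the other diets had 1 called probe of 31371, which was no member.

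HFC against LFC, log2 differences that turned round. Pairs on 1 slide gave Gclc 0.12 and Nqo1 0.16, pairs scanned on 1 day Cat −0.057, quantile normalization Gclc 0.021 and Nqo1 0.41, slide as a random block Hmox1 −0.18, and leaving out week 9 Hmox1 −0.15. Without the 2 LFC arrays that stood apart, Cat was −0.081, Gpx1 −0.38 and Hmox1 −0.32. Leaving out 1 time, Cat ran from −0.057 to 0.59, Gpx1 from −0.090 to 0.55 and Hmox1 from −0.18 to 0.51.

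HF5 against HFC. Normexp gave Gpx1 0.056, Gpx3 0.072 and Slc7a11 −0.61, and pairs on 1 slide Gclm 0.016 and Hmox1 −0.0999. Leaving out 1 week, Gpx3 ran from −0.70 to 0.25, Srxn1 from −0.0999 to 0.56, Gclm from −0.38 to 0.023, Nqo1 from −0.60 to 0.33 and Hmox1 from −0.066 to 0.85. Gclc and Txnrd1 kept their direction throughout.

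HF20 against HFC. Normexp gave Txnrd1 0.13, Gclm −0.33 and Nqo1 −0.30, pairs scanned on 1 day Nqo1 −0.074, and leaving out week 9 Gpx1 −0.0076 and Nqo1 −0.034. Leaving out 1 week, Gpx1 ran from −0.20 to 0.43, Txnrd1 from −0.19 to 0.18, Gclc from −0.23 to 0.071 and Nqo1 from −0.12 to 0.25.

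HF75 against HFC. Normexp gave Slc7a11 −0.37, pairs scanned on 1 day Cat 0.34 and Gpx1 0.067, and leaving out week 9 Cat 0.14. Leaving out 1 week, Cat ran from −0.49 to 0.14, Gpx1 from −0.30 to 0.0076 and Txnrd1 from −0.048 to 0.34. Gpx3 stayed below 0, between −1.29 and −0.96.

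Late against early. Quantile normalization gave Srxn1 −0.13. Leaving out 1 time, Gpx1 ran from −0.62 to 0.27, Gpx3 from −0.63 to 0.33, Srxn1 from −0.11 to 0.33 and Txnrd1 from −0.14 to 0.37.

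Diet by stage. Normexp gave Gpx1 −0.69, Srxn1 −0.25, Gclm 0.31, Slc7a11 2.48, Nqo1 0.52 and Hmox1 −0.43, leaving dim values as they were Gpx3 0.079, and quantile normalization Gpx3 0.66. Without the 2 LFC arrays that stood apart, Gpx1 was −0.22, Gpx3 0.020, Srxn1 −0.053 and Slc7a11 0.63.

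Weeks. At week 3 normexp turned Gclm from −0.57 to 0.67, past the threshold. At week 6 normexp turned Slc7a11 to −0.30, and Hmox1 was −0.31 with arrays of the main scan day, −0.25 without week 9, and −0.41 to 0.64 leaving out 1 diet. Gpx3 and Srxn1 kept their direction at weeks 3 and 6 under all 13 alternatives, but the week 6 call of Srxn1 was lost leaving out 1 diet.

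No paired analysis was possible by replicate number, because the labels number no replicates; the diet and dose comparisons pair arrays by time label. Slide as a block was not run for HF20 and HF75, where no 2 arrays of a comparison share a slide. Signal over background limited Slc7a11, measured on 11 of 38 arrays, and the LFC array of week 3, on which every member is a bound.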

Other observations

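The labels of 2 arrays of week 18 conflict between HF20 and HF75, so that they entered no comparison. The first stood apart, with 21710 outlier spots and 98.1% of the probes well above background. Their levels, in the order of the arrays, were −0.41 and 1.32 for Cat, 2.10 and 4.62 for Gpx1, −1.01 and 2.46 for Gpx3, 1.55 and 1.87 for Srxn1, −0.03 and 2.56 for Txnrd1, −1.17 and 0.30 for Gclc, −3.18 and −2.65 for Gclm, −2.30 and −0.19 for Nqo1, and −0.63 and 1.94 for Hmox1. Slc7a11 was well above background on neither.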
